A study of Mus musculus with 6 samples.

Results

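Genes of the families that make, break down, bind and anchor the second messenger cyclic AMP (cAMP) were followed in sorted intestinal cells. They were taken by gene symbol, as the numbered adenylyl cyclases (Adcy), phosphodiesterases (Pde), A-kinase anchoring proteins (Akap) and Rap guanine nucleotide exchange factors (Rapgef), the regulatory and catalytic subunits of protein kinase A (Prkar, Prkac) and the anchor Sphkap. The rule gave 63 of the 18193 genes measured, namely 10 cyclases, 25 phosphodiesterases, 6 kinase subunits, 5 exchange factors and 17 anchors, and it used no expression value except to take, for each gene, the probe set with the highest mean. Expression was measured on 6 Affymetrix arrays, 3 of CCK-EGFP cells and 3 of non-EGFP cells. Both groups were sorted by fluorescence from the dissociated intestine of adult Swiss Webster (SW) mice that carry the CCK-EGFP transgene, in which green fluorescent protein marks cells that express cholecystokinin (Cck). The non-EGFP group holds an equal number of non-fluorescent cells, a mixture of types. Neither the transgene's construct nor the number of mice behind the 3 samples of each group is stated in the labels. The p-values therefore reflect only how far these samples spread, possibly for technical reasons, and precision is limited by the small number of arrays.

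Adenylyl cyclases make cAMP from ATP when a receptor activates the stimulatory G protein, and phosphodiesterases degrade it. The messenger acts mainly through protein kinase A (PKA), in which a pair of regulatory subunits holds catalytic subunits inactive until cAMP binds, and anchoring proteins tether the regulatory subunits to particular places in the cell. It also acts through the Epac exchange factors, which load the small GTPase Rap. The families taken here by symbol also hold genes that do not act on cAMP. In enteroendocrine cells, the hormone-secreting cells of the gut epithelium, a rise in cAMP promotes release of hormones.

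Promoters are shown for the PKA subunit genes that rose in CCK-EGFP cells, taking of each gene's listed start sites one with a cAMP response element or its core, and for Sphkap, the gene with the largest difference. This choice was made after their values were seen. Each line gives the 250 bases before an annotated start (RefSeq, GRCm38.p6), 5′ to 3′ on the strand of the gene. Capitals mark the cAMP response element TGACGTCA, to which the factor CREB binds, and its shorter core TGACG, written CGTCA where it lies on the other strand.
Prkar1a, chr11:109650699-109650948, plus strand: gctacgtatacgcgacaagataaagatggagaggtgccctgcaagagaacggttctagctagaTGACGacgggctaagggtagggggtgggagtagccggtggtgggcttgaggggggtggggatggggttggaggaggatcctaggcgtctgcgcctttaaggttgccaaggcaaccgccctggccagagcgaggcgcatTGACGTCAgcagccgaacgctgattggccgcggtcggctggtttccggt
Prkar1b, chr5:139150002-139150251, minus strand: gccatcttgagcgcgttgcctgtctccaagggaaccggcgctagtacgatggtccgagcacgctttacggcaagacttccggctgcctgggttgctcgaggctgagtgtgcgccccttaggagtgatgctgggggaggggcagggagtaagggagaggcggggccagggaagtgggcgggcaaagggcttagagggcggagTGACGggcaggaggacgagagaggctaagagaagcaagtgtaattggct
Prkacb, chr3:146812947-146813196, minus strand: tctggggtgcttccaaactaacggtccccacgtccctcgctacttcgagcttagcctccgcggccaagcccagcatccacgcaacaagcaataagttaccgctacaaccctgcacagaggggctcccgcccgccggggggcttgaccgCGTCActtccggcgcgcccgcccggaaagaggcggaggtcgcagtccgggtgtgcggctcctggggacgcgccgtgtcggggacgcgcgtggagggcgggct
Sphkap, chr1:83408201-83408450, minus strand: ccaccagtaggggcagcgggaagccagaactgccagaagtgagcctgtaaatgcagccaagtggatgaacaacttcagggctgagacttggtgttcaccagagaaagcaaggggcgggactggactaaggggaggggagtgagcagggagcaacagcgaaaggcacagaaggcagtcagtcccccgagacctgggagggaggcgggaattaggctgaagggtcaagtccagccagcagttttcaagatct

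Counted from the start, the Prkar1a promoter holds the full element at -49 and a separate core at -187. A core stands at -49 in Prkar1b and at -102 in Prkacb. The Sphkap window holds none of these letters. Start sites were listed for 52 of the 63 genes, 97 windows in all of 300 bases each, 250 before and 50 after the start. The full element occurred in 2 of the 97 windows (2.06%), both of them overlapping windows of Prkar1a, against 1.79% of 32851 windows of all genes. The core, counted on both strands and including those inside a full element, occurred in 20 windows (20.6%) against 20.8% of all windows. By call, the core occurred in 8 of 30 windows of genes that rose (26.7%) and in 0 of 6 of genes that fell. It occurred in 12 of 61 windows of genes that did not pass (19.7%). The 3 kinase gene windows shown were picked for holding a motif, so its presence there was fixed by the choice. These are matches of letters and were not tested as binding sites.

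In CCK-EGFP cells 13 of the 63 genes rose, 5 fell, and 45 did not pass the test (limma with Benjamini-Hochberg adjustment over all genes, adjusted p under 0.05). The share called higher was 20.6%, against 14.0% of all genes tested, and the share called lower was 7.94%, against 10.2%. In either direction 24.1% of all genes were called. The median log2 difference, CCK-EGFP minus non-EGFP, was 0.01 over the 63 genes and -0.17 over all genes. The groups did not overlap for 20 genes on the higher side and 13 on the lower side, where 21.8% and 28.1% of all genes stood apart in those directions (49.9% in either). With each array centred on its median, which shifted the median difference of all genes by -0.25, the split was 11 higher and 10 lower, beside 2101 higher and 3604 lower of all 18193 genes. It was 8 higher and 3 lower without CCK-EGFP replicate 1 and 8 higher and 2 lower without CCK-EGFP replicate 2, and calls over all genes fell from 4391 to 2134 and 1870 in these fits. It was 13 higher and 4 lower without CCK-EGFP replicate 3, beside 2154 and 1384 of all genes. Without non-EGFP replicate 1 it was 13 and 3, beside 2070 and 1021. Without non-EGFP replicate 2 it was 13 and 2, beside 1992 and 880. Without non-EGFP replicate 3 it was 12 and 3, beside 2486 and 1962. With the replicate number as a block, 14 genes were higher and 3 lower, beside 2340 and 1534 of all genes.

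**Figure D1:**
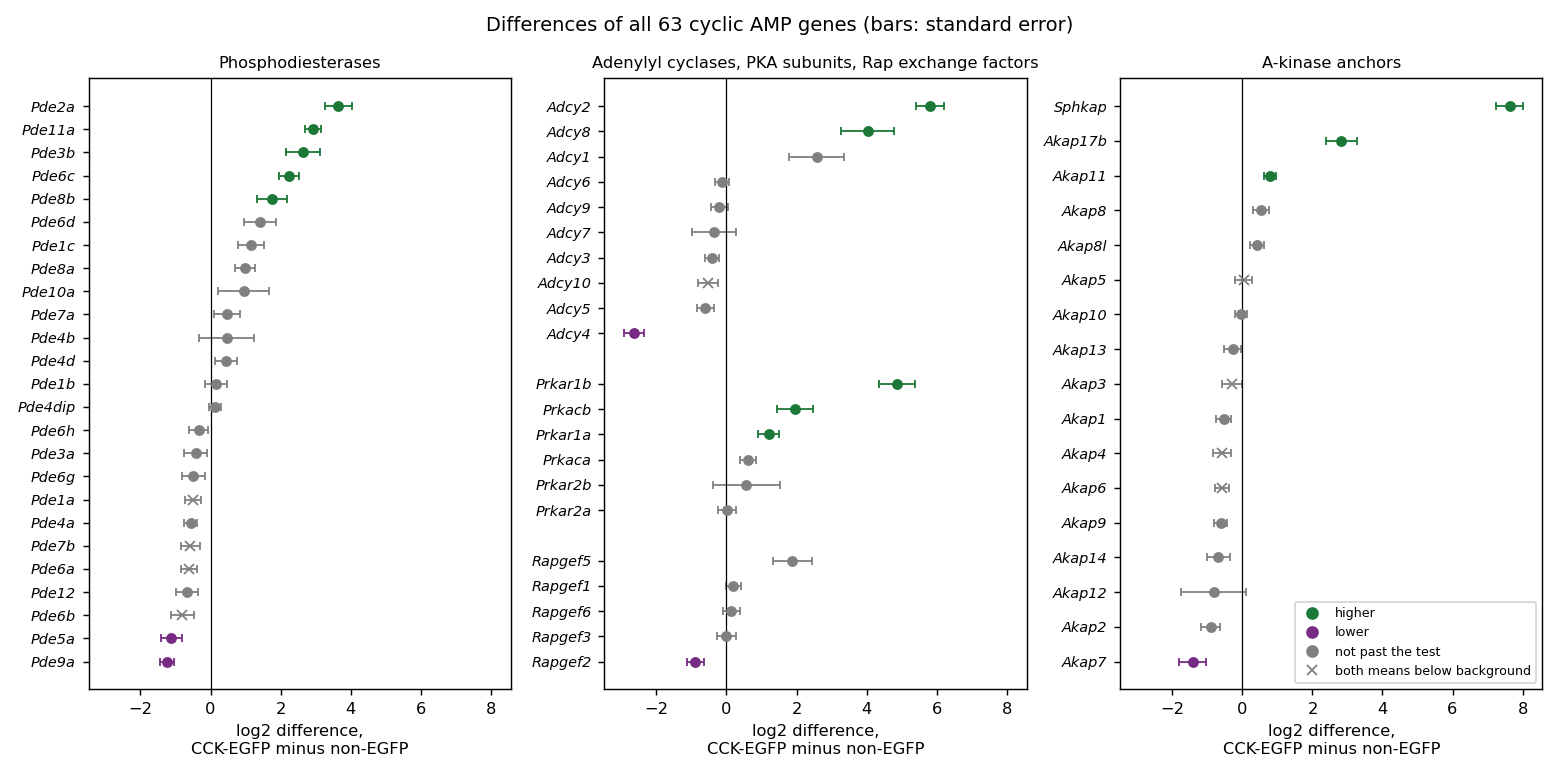
Log2 difference between CCK-EGFP and non-EGFP cells (horizontal axis) for the 63 cyclic AMP genes, in panels by family, with bars for the standard error of the fit and crosses where both group means lay below the background level. Sphkap lies farthest to the right at 7.63, and Adcy4 farthest to the left at -2.64.

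Values are log2 RMA intensities. Probes of different genes bind differently, so levels are compared between arrays and not between genes. A background level of 4.60 was set from 71 olfactory and vomeronasal receptor genes. Folds for a group whose mean was under this level use the level itself and are lower bounds. All 12 enteroendocrine markers measured were higher in CCK-EGFP cells, and 0 of them had a mean below background in non-EGFP cells. Of 15 enterocyte markers 5 (Apob, Mttp, Dgat1, Slc5a1 and Treh) were lower and 0 higher, with a summed level (log2 of the summed intensities) of 16.70 to 17.15 in CCK-EGFP cells, highest on replicate 3, and 17.42 to 17.44 in non-EGFP cells. Each of these 5 calls was kept on omitting CCK-EGFP replicate 3 and ended on omitting any other array (adjusted p up to 0.155), and those of Apob (0.068), Mttp (0.055) and Treh (0.0527) also ended with the block. Of 8 goblet cell markers 2 (Muc2 and Spdef) were lower and 1 (Agr2) higher, with a summed level of 15.96 to 16.22 against 16.32 to 16.46. The Muc2 call was kept only on omitting CCK-EGFP replicate 3, and that of Spdef only on omitting non-EGFP replicate 2 or 3. That of Agr2 was kept on omitting each array in turn. Of 5 markers of enteric glia and interstitial cells of Cajal, Gfap and Ano1 were higher, with a summed level of 8.94 to 10.27 against 7.80 to 7.95. Both of these calls ended on omitting CCK-EGFP replicate 1 or 2, and that of Ano1 also on omitting replicate 2 or 3 of non-EGFP cells (up to 0.108). Gfap had a mean of 4.69 in CCK-EGFP cells, just above background (at least 1.07-fold). The glial markers Sox10 and S100b went the other way, by -0.92 and -0.61, with groups apart, and did not pass (limma adjusted p = 0.0557 and 0.118). Kit differed by 1.63 without passing (0.0931). Of 6 tuft cell markers 3 (Dclk1, Sh2d6 and Gfi1b) were higher, with a summed level of 11.27 to 12.51 against 9.53 to 10.15. The calls of Dclk1 and Sh2d6 were kept on omitting each array in turn. That of Gfi1b was kept only on omitting CCK-EGFP replicate 3, and it ended with the block (0.0581). Markers of T and NK lymphocytes were above background in both groups, with 0 of 11 called and summed levels of 13.18, 13.99 and 15.05 in CCK-EGFP replicates 1 to 3 and 13.68, 14.08 and 14.94 in the non-EGFP replicates. Of 14 markers of fibroblasts, smooth muscle and endothelium, 11 had a mean below background in each group. The part of these cells in the results was not tested. The pool is measured as a whole, and fewer cells of a type cannot be told apart from less RNA per cell. The 3′ minus 5′ log2 difference of the pyruvate carboxylase control, a measure of RNA quality and labelling, was 2.36 to 3.07 on the CCK-EGFP arrays and 4.26 to 4.38 on the non-EGFP arrays, while the groups overlapped for the Gapdh, beta-actin and transferrin receptor controls.

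Among the 10 adenylyl cyclases, Adcy2 and Adcy8 were higher in CCK-EGFP cells, Adcy4 was lower and 7 did not pass. Adcy2, a cyclase that G protein beta-gamma subunits stimulate, read 10.44, 10.18 and 9.43 in CCK-EGFP cells against 4.92, 3.80 and 3.94 in the non-EGFP cells. Every CCK-EGFP array was far above every non-EGFP array, and of the latter only replicate 1 exceeded background. The log2 difference was 5.80 (SE 0.40, limma adjusted p = 0.000417), at least 42.7-fold against the background level.

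Adcy8, a cyclase that calcium and calmodulin stimulate, read 8.54, 9.39 and 6.37 in CCK-EGFP cells and 4.40, 4.30 and 3.47 in non-EGFP cells. The CCK-EGFP arrays spread widely, with replicate 3 lowest, but the groups did not overlap and all non-EGFP values were below background. The difference was 4.04 (SE 0.76, limma adjusted p = 0.0133), at least 11.3-fold, and it lost its call without CCK-EGFP replicate 1 (adjusted p = 0.0512). Adcy1 and Adcy3 belong to the same calmodulin-stimulated class and were singled out after their values were seen. Adcy1 read 6.65, 7.86 and 4.71 against 3.69, 4.44 and 3.36, the same order of arrays in CCK-EGFP cells as Adcy8, and did not pass (difference 2.58, SE 0.78, limma adjusted p = 0.0556). Adcy1 passed with the replicate number as a block (adjusted p = 0.0265), and its second probe set was called higher by 3.89 (adjusted p over probe sets = 0.00242). Adcy3 went the other way, with 5.58, 5.60 and 5.24 against 5.80, 6.14 and 5.73, groups that did not overlap, and did not pass (difference -0.41, SE 0.21, limma adjusted p = 0.182). All 4 of its probe sets had a negative difference. Among CCK-EGFP arrays, summed markers of enterocytes and Paneth, stem, lymphoid and myeloid cells were highest on replicate 3, where Adcy8 and Adcy1 were lowest. Goblet cell sums were nearly equal on replicates 1 and 3 (16.21 and 16.22). Those of enteroendocrine cells, tuft cells, glia with Cajal cells, and fibroblasts with muscle and endothelium were lowest on replicate 3. None of these was tested as a cause.

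Adcy4, another cyclase stimulated by beta-gamma subunits, went the opposite way. It read 4.56, 5.11 and 4.03 in CCK-EGFP cells, near background, and 7.13, 7.35 and 7.15 in non-EGFP cells. The groups were well apart, with a difference of -2.64 (SE 0.30, limma adjusted p = 0.00227), at least 6.09-fold lower against the background level. The call was kept when each of the 6 arrays was left out in turn (adjusted p up to 0.0134).

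Of the cyclases that did not pass, Adcy6, a cyclase that calcium inhibits, read 10.18, 10.27 and 10.30 in CCK-EGFP cells and 10.33, 10.15 and 10.62 in non-EGFP cells, with overlapping groups (difference -0.12, SE 0.20, adjusted p = 0.655). Adcy7 read 9.28, 9.54 and 11.46 against 10.08, 10.04 and 11.23 (difference -0.36, SE 0.64, adjusted p = 0.689). Replicate 3 was highest in both groups for Adcy7, as it was for the summed T and NK lymphocyte markers. The summed markers of B and plasma, myeloid, Paneth and stem cells were also highest on replicate 3 of each group. The part of any of these cells in the level of Adcy7 was not tested. Adcy9 and Adcy5 had differences of -0.21 and -0.60. The soluble, bicarbonate-activated cyclase Adcy10 had both group means below background. For Adcy5 the probe sets disagreed, with calls in both directions between -2.28 and 2.01, so its direction depends on the probe set.

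**Figure D2:**
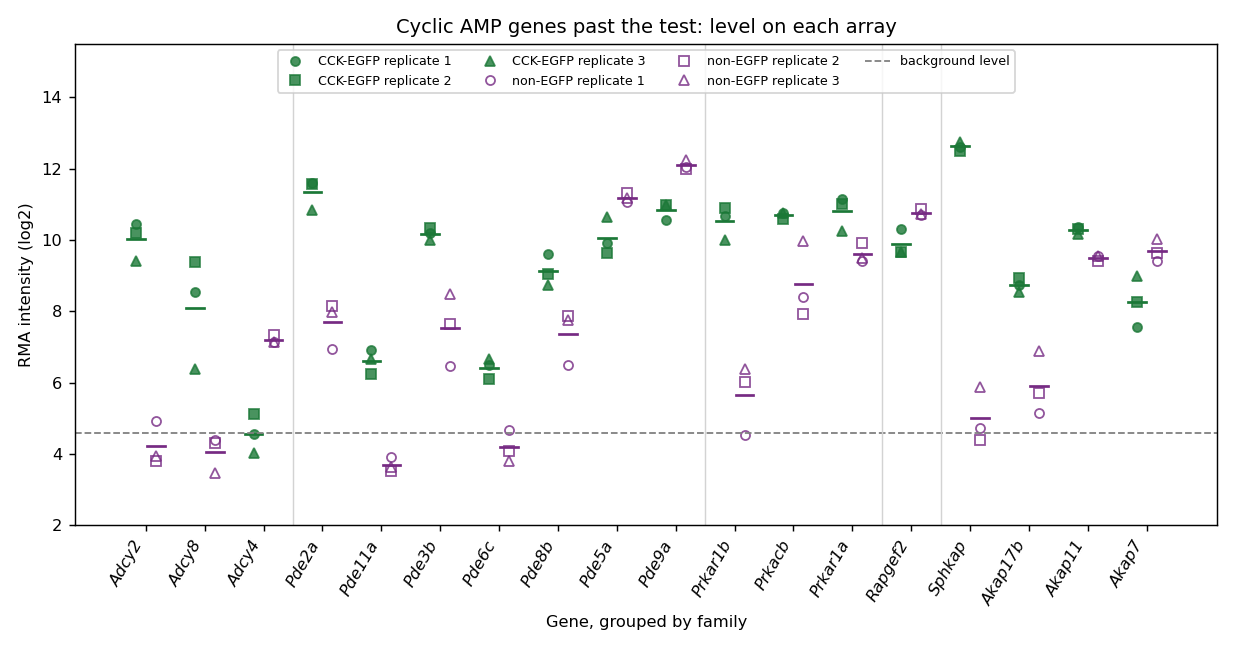
RMA intensity (log2, vertical axis) of the 18 cyclic AMP genes past the test on each array, filled green symbols for CCK-EGFP and open purple symbols for non-EGFP replicates, with a short line at each group mean and a dashed line at the background level of 4.60. Adcy2, Adcy8, Pde11a and Pde6c have non-EGFP means below the dashed line, and the CCK-EGFP mean of Adcy4 lies just below it at 4.57.

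Among 25 phosphodiesterase genes, 5 rose and 2 fell, while 18 did not pass. The genes that rose encode enzymes of differing substrate: Pde2a, Pde3b and Pde11a act on cAMP and cyclic GMP (cGMP), Pde8b on cAMP and Pde6c on cGMP. Both genes that fell, Pde9a and Pde5a, encode enzymes specific for cGMP. Pde2a, an enzyme that cGMP stimulates to degrade cAMP, read 11.61, 11.56 and 10.84 in CCK-EGFP cells and 6.95, 8.14 and 7.97 in non-EGFP cells. All values were above background and the groups stood apart by a wide margin. The difference was 3.65 (SE 0.38, limma adjusted p = 0.00173), a 12.6-fold higher level. A second probe set of Pde2a was higher by 4.81 and a dim further one differed by 0.36.

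Pde11a, a dual-specificity enzyme, read 6.92, 6.25 and 6.66 against 3.91, 3.51 and 3.63. All non-EGFP values lay below background, and the difference of 2.93 (SE 0.24, limma adjusted p = 0.000737) was at least 4.03-fold. Its other probe set differed by 0.33 and was not called. Pde3b, an enzyme that cGMP inhibits and that lowers cAMP downstream of insulin, read 10.19, 10.33 and 9.99 in CCK-EGFP cells and 6.46, 7.65 and 8.48 in non-EGFP cells. The CCK-EGFP arrays were tight and the non-EGFP arrays spread widely, without overlap between the groups. The difference was 2.64 (SE 0.49, limma adjusted p = 0.0131), or 6.23-fold, and the call ended without CCK-EGFP replicate 2 (adjusted p = 0.0554).

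Pde8b, a high-affinity enzyme specific for cAMP, read 9.61, 9.04 and 8.74 against 6.50, 7.86 and 7.75, a difference of 1.76 (SE 0.43, limma adjusted p = 0.0296). Leaving out CCK-EGFP replicate 1 or replicate 2 ended its call (adjusted p up to 0.0963), as did the replicate number as a block (adjusted p = 0.0649). Its paralog Pde8a read 10.10, 10.20 and 9.70 against 9.31, 9.25 and 8.49, did not overlap between the groups, and fell just short of the threshold (difference 0.98, SE 0.29, adjusted p = 0.0515, or 0.0348 with the block). Pde6c, known as the catalytic subunit of the cone photoreceptor enzyme, read 6.50, 6.09 and 6.67 in CCK-EGFP cells and 4.68, 4.07 and 3.80 in non-EGFP cells. Its difference was 2.24 (SE 0.29, limma adjusted p = 0.00383), at least 3.53-fold. Of the other Pde6 genes, Pde6a and Pde6b were below background in both groups, and Pde6g and Pde6h differed by -0.49 and -0.34 without passing. Pde6d, a carrier of prenylated proteins rather than an enzyme, differed by 1.42 (adjusted p = 0.0654, or 0.0451 with the block).

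Pde9a and Pde5a were abundant in both groups and lower in CCK-EGFP cells. Pde9a read 10.57, 10.99 and 11.00 against 12.05, 11.99 and 12.24, without overlap (difference -1.24, SE 0.20, limma adjusted p = 0.00852), and kept its call when any 1 array was left out. Pde5a, the target of sildenafil, read 9.92, 9.64 and 10.65 against 11.05, 11.32 and 11.18, with CCK-EGFP replicate 3 nearest the non-EGFP arrays. Its difference was -1.12 (SE 0.29, limma adjusted p = 0.0377). For Pde5a the call survived the loss of CCK-EGFP replicate 3 alone, reached an adjusted p of up to 0.119 without another array, and was not kept with the block (0.0564). A second of its probe sets fell by 1.57 on the log2 scale. Summed enterocyte and goblet cell markers were lower on the same arrays, the enterocyte markers least so on CCK-EGFP replicate 3. The goblet sums were 16.21, 15.96 and 16.22 on CCK-EGFP replicates 1 to 3. The part of these cells in the change of Pde5a was not tested.

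The cAMP-specific enzymes of the Pde4 group did not pass. Pde4d differed by 0.43 (adjusted p = 0.329), Pde4b by 0.46 (0.671) and Pde4a by -0.56 (0.0674), and Pde4b ran from 5.04 to 8.32 within the non-EGFP arrays. Pde4dip, which despite its symbol encodes a centrosome and Golgi protein, read 11.66, 11.57 and 11.49 against 11.54, 11.38 and 11.37 (difference 0.14, SE 0.17, adjusted p = 0.548), with overlapping groups. Pde7a differed by 0.47, Pde1b by 0.16 and Pde10a by 0.95, while Pde12, which does not act on cyclic nucleotides, differed by -0.67 and Pde3a by -0.42. Pde1a and Pde7b were below background in both groups. Pde1c, an enzyme that calcium and calmodulin activate, was not called on its brightest probe set (1.16, SE 0.37, adjusted p = 0.0666), but 3 of its other 5 probe sets were called higher, by 1.57, 3.73 and 5.03. The probe set with the last of these values had a mean of 8.30 in CCK-EGFP cells against 3.27 in the other group.

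Of the 6 PKA subunit genes 3 were higher and 0 lower, and among the regulatory genes both of type I passed and neither of type II did. Prkar1b, which encodes a type I regulatory subunit known mainly from neurons, read 10.66, 10.91 and 10.00 in CCK-EGFP cells and 4.53, 6.02 and 6.39 in non-EGFP cells. The groups were separated by more than the spread within either, with a difference of 4.88 (SE 0.52, limma adjusted p = 0.00179), a 29.4-fold higher level. Of its 5 probe sets 4 were called higher, the other 3 of them by 3.87, 4.16 and 4.47. Prkar1a, the widely expressed type I subunit, read 11.15, 11.00 and 10.26 against 9.41, 9.91 and 9.49, and differed by 1.20 (SE 0.30, limma adjusted p = 0.0314). A second probe set of Prkar1a was called higher by 1.36.

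Prkar2a, a type II regulatory subunit, read 11.29, 11.50 and 11.45 in CCK-EGFP cells and 10.94, 11.43 and 11.82 in non-EGFP cells, a difference of 0.01 (SE 0.26, adjusted p = 0.972). Prkar2b, whose values by array are given because of their spread, read 6.17, 6.07 and 5.43 against 7.68, 3.93 and 4.35. Non-EGFP replicate 1 stood above every other array for Prkar2b, and without it the gene was called (adjusted p = 0.0202, against 0.669 with all arrays). The catalytic gene Prkacb read 10.76, 10.60 and 10.77 against 8.39, 7.92 and 9.97 and was higher by 1.95 (SE 0.51, limma adjusted p = 0.0379). Prkaca, the other catalytic gene, read 10.75, 10.77 and 10.95 against 9.83, 10.23 and 10.51. It did not overlap between the groups and did not pass (difference 0.63, SE 0.23, adjusted p = 0.09). Whether the type I and type II genes differ in their change was not tested. The call of Prkacb was kept without non-EGFP replicate 3 and ended without any other single array (adjusted p up to 0.105), and that of Prkar1a was lost on omitting replicate 1 or 2 of CCK-EGFP, or 1 or 3 of non-EGFP cells (up to 0.112), and with centred arrays (0.0612).

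Of the 17 anchor genes 3 were higher and 1 lower. Sphkap, an anchor that binds type I regulatory subunits of PKA, had the largest difference of the 63 genes. It read 12.62, 12.51 and 12.76 in CCK-EGFP cells and 4.71, 4.40 and 5.88 in non-EGFP cells, so the CCK-EGFP arrays lay close together, far above the non-EGFP arrays, of which replicate 2 was below background. The difference was 7.63 (SE 0.39, limma adjusted p = 0.000153), a 198-fold higher level. The dim second probe set of Sphkap was also called higher, by 1.10, but its means of 3.87 and 2.76 were both below background. Akap17b read 8.74, 8.95 and 8.54 against 5.16, 5.69 and 6.89 and was higher by 2.83 (SE 0.44, limma adjusted p = 0.00727), and its other probe set was called higher by 2.54.

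Akap11, an anchor that also binds protein phosphatase 1 and glycogen synthase kinase 3, rose by a smaller amount, from 9.56, 9.40 and 9.56 to 10.36, 10.32 and 10.17 (difference 0.78, SE 0.17, limma adjusted p = 0.0223). The call ended with the block (adjusted p = 0.0515), with centred arrays (0.0801) and on omitting replicate 1 or 2 of CCK-EGFP or replicate 2 of non-EGFP cells (up to 0.0907). Akap7, an anchor at the plasma membrane, was lower. It read 7.56, 8.27 and 8.98 in CCK-EGFP cells and 9.42, 9.64 and 10.02 in non-EGFP cells, with CCK-EGFP replicate 3 closest to the other group. The difference was -1.42 (SE 0.38, limma adjusted p = 0.0412), a call kept on omitting CCK-EGFP replicate 3 but no other array (up to 0.119). The summed enterocyte markers, lower in CCK-EGFP cells, were also highest on replicate 3 of that group. The summed T and NK, B and plasma, and myeloid markers increased from replicate 1 to 3 in both groups, as Akap7 did. The part of these cells was not tested.

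The other 13 anchors did not pass. Akap13 read 10.70, 10.75 and 11.13 against 10.80, 11.26 and 11.37 (difference -0.28, SE 0.24, adjusted p = 0.387), although 3 of its 6 dimmer probe sets were called lower by 1.55 to 1.75 on the log2 scale. Akap9, the large anchor of the centrosome and Golgi, read 10.66, 10.60 and 10.38 against 11.30, 11.16 and 11.03, did not overlap between the groups and fell short of the threshold (difference -0.62, SE 0.18, adjusted p = 0.0537). The nuclear anchor Akap8 and its relative Akap8l differed by 0.54 and 0.42, the mitochondrial anchor Akap1 by -0.53, and Akap10 by -0.04. Akap2 differed by -0.90 (adjusted p = 0.0574) and Akap12 by -0.82, the latter running from 4.61 to 7.88 within non-EGFP cells. Akap3, Akap4, Akap5 and Akap6 had both means below background, and Akap14 differed by -0.69 near it.

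Of the 5 Rap exchange factors 0 were higher and 1 lower. Of these, Rapgef3 encodes an Epac factor, and membership by symbol does not show that the others respond to cAMP. Rapgef2 read 10.31, 9.66 and 9.68 in CCK-EGFP cells and 10.71, 10.87 and 10.74 in non-EGFP cells, a difference of -0.89 (SE 0.24, limma adjusted p = 0.0393). Replicate 1 was the CCK-EGFP array closest to the other group, the call was kept only when that array was left out (adjusted p up to 0.134 without another array), and it ended with the block (0.0657). Rapgef5 read 9.16, 9.09 and 9.31 against 6.07, 8.36 and 7.47 without overlap, and just missed the threshold (difference 1.88, SE 0.55, adjusted p = 0.0505). A second probe set of Rapgef5 was called higher by 1.57. Rapgef1 (9.71, 9.76 and 10.09 against 9.39, 9.87 and 9.72) and Rapgef6 (9.16, 9.25 and 9.77 against 9.06, 9.17 and 9.53) overlapped between the groups, with adjusted p of 0.521 and 0.682. Rapgef3, which encodes the cAMP receptor Epac1, read 4.51, 4.55 and 5.24 against 5.10, 4.57 and 4.64, around background, with a difference of -0.0036 (SE 0.28, adjusted p = 0.993). The 5 probe sets of Rapgef3 ran from -0.27 to 1.81, and 0 were called. The one at 1.81 had means of 5.11 in CCK-EGFP and 3.30 in non-EGFP cells. Rapgef4, which encodes Epac2, was not analysed here.

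Agreement between probe sets of the same gene was examined for the 45 genes with more than 1. The 10 genes called on their brightest probe set had 17 further probe sets, of which 16 had the same sign, 9 were also called in the same direction and 0 in the opposite one. The exception was a probe set of Prkar1a far below background, at -0.06. Among the genes that were not called, 10 had another probe set that was, 8 such probe sets higher and 7 lower. They were Adcy1, Adcy5, Pde1c, Pde7a, Rapgef5 and Akap8 on the higher side and Adcy5, Rapgef6, Akap5, Akap9 and Akap13 on the lower side, so the choice of the brightest probe set decided these calls. The called probe set of Akap5 had means of 2.33 in CCK-EGFP and 3.18 in non-EGFP cells, both below background.

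**Figure D3:**
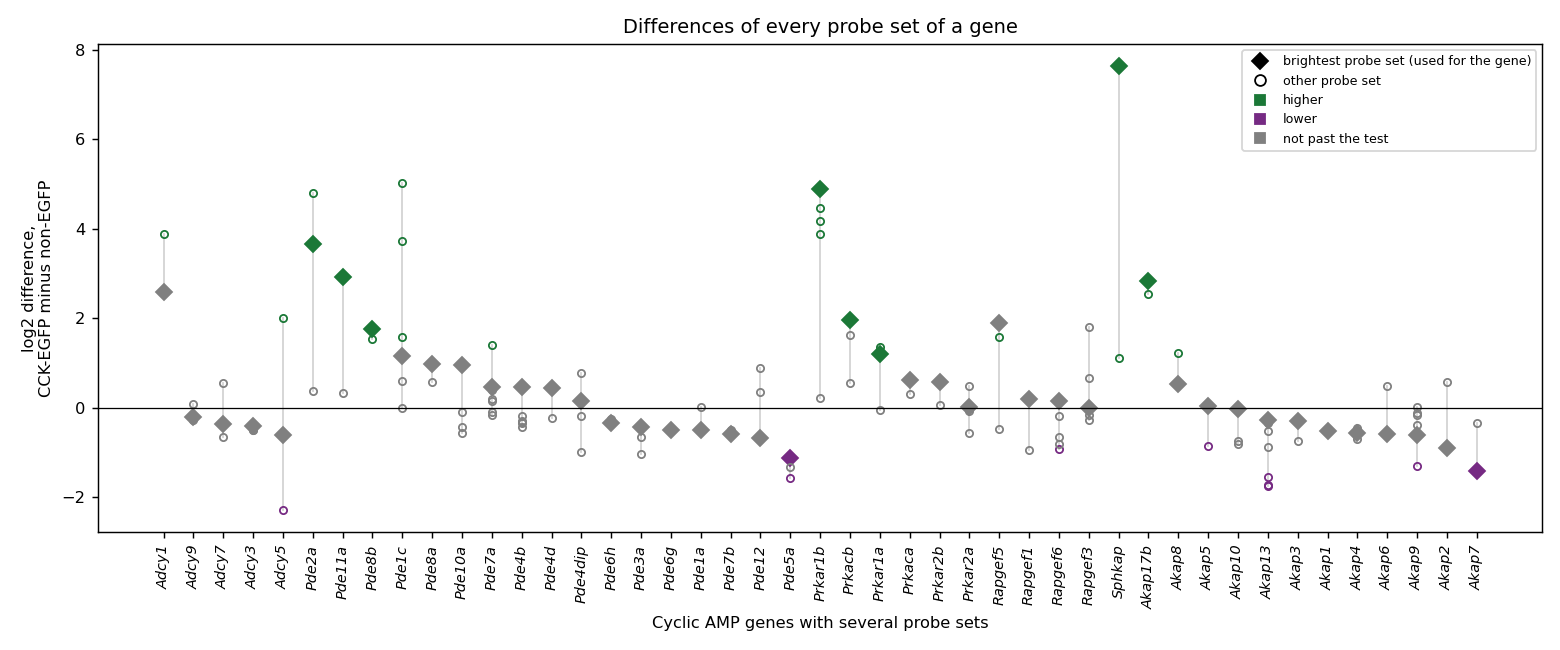
Log2 difference (vertical axis) of every probe set of the cyclic AMP genes with more than 1, with a diamond for the brightest probe set used for the gene, circles for the others and colours for the call over all probe sets. Pde1c runs from 0.0025 to 5.03 and Adcy5 from -2.28 to 2.01, whereas the probe sets of Prkar1b are high but for 1 at 0.21.

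Genes around the pathway were taken from 12 lists, and 20 of the 84 measured were higher (23.8%, against 14.0% of all genes) and 5 lower (5.95%, against 10.2%). Of the 7 G protein alpha subunits that act on cyclases, 4 were higher. The stimulatory subunit Gnas read 12.34, 12.48 and 12.19 against 11.57, 11.78 and 11.65 (difference 0.68, limma adjusted p = 0.0399). Omitting any single array ended the Gnas call (adjusted p up to 0.141), and so did the block (0.0651). Subunits of the inhibitory class rose further, Gnaz by 4.87 (10.49, 9.94 and 10.07 against 5.59, 4.48 and 5.83, adjusted p = 0.000623), Gnao1 by 4.10 (adjusted p = 0.00578) and Gnai1 by at least 53.7-fold (adjusted p = 0.000104). Gnai2 and Gnai3 differed by 0.30 and -0.22 and did not pass.

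The heat-stable PKA inhibitor peptides, which block the free catalytic subunit, were higher for 2 of 3 genes. Pkib read 10.66, 10.39 and 10.41 in CCK-EGFP cells and 4.76, 3.02 and 3.77 in non-EGFP cells, at least 59.3-fold higher (fitted difference 6.64, SE 0.43, limma adjusted p = 0.000349). Pkia read 7.52, 7.18 and 7.05 against 3.41, 3.47 and 3.18, at least 6.29-fold higher (fitted difference 3.90, SE 0.21, adjusted p = 0.000164). Every non-EGFP array was below background for Pkia, and 1 of 3 was above it for Pkib. Pkig was abundant in both groups and differed by -0.22 (adjusted p = 0.364).

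Anchors without an Akap symbol were higher for 4 of 10 genes and lower for 1. The microtubule protein Map2 rose at least 19.7-fold, the actin regulator Wasf1 at least 24.8-fold, Cbfa2t3 by 4.19 and neurobeachin (Nbea) by 3.23 on the log2 scale (adjusted p at most 0.00579). Rab32 differed by 0.87 and did not pass (adjusted p = 0.0788), but it passed with the block (0.046) and in 1 of the fits that left out an array (0.0285). Ezrin (Ezr), the linker of actin to the microvillus membrane, read 10.74, 11.08 and 11.04 against 12.04, 12.23 and 12.12 and was lower (difference -1.17, limma adjusted p = 0.00787), a call kept on omitting each array in turn. The summed enterocyte markers were lower too, though the calls of the 5 lower markers were not kept in this way, and their part was not tested. Abcc4, a transporter that exports cAMP, read 7.96, 8.47 and 8.10 against 4.61, 4.63 and 4.23 and was at least 11.9-fold higher (adjusted p = 0.000276).

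Of 9 Rap GTPases, Rap regulators and Epac2 partners, 4 were higher and 1 lower. The Epac2-binding active zone protein piccolo (Pclo) rose at least 70.5-fold, with 1 non-EGFP array at 6.25 and the others at 2.84 and 2.91 (adjusted p = 0.00417). The Rap inactivators Rap1gap and Rap1gap2 rose by 2.67 and 1.36, Rap1b by 0.89, and Rap2c fell by 0.96 on the log2 scale. The calls of Rap1b, Rap1gap2 and Rap2c ended without CCK-EGFP replicate 2 (adjusted p up to 0.0968 without single arrays), that of Rap1b also without CCK-EGFP replicate 1, and that of Rap2c also without CCK-EGFP replicate 1 or non-EGFP replicate 1 or 2 and with the block (0.0557).

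Of 11 receptors that couple to the stimulatory G protein, Glp1r, the receptor of glucagon-like peptide 1, was higher (5.19, 5.49 and 4.73 against 3.45, 3.82 and 3.46, at least 1.45-fold, limma adjusted p = 0.00848). Vipr1, a receptor of vasoactive intestinal peptide, was lower (6.20, 6.77 and 7.45 against 8.74, 9.22 and 9.13, difference -2.22, adjusted p = 0.00714). Sctr was also called lower but had both means below background (adjusted p = 0.0392, up to 0.118 on omitting any single array, each of which ended the call, and 0.0729 with the block). Of 7 genes of the CREB family and its coactivators only Crtc1 passed, higher by 1.89 (adjusted p = 0.0205, up to 0.0768 on omitting replicate 1 or 2 of CCK-EGFP or replicate 2 of non-EGFP cells). Of 9 CREB target genes, Nr4a1 (11.32, 11.70 and 10.15 against 6.64, 6.83 and 7.10) and Nr4a2 (10.92, 11.00 and 11.97 against 8.10, 8.20 and 8.48) were higher, by 4.20 and 3.04, and 0 were lower. Fos and Dusp1, which tissue dissociation also induces, differed by 0.07 and 0.56 and did not pass, and Pck1 differed by -1.92 without passing. Fos was high on every array of both groups, at 13.39 to 13.64. The part of dissociation in the levels of Nr4a1 and Nr4a2 was not tested. Nr4a3 differed by 1.79 (adjusted p = 0.087) and Ppargc1a by -1.33 (0.0555), and both passed with the block (0.0411 and 0.0314).

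Of 10 other cyclic nucleotide binding proteins 0 were called, 6 of them with both means below background. Of 4 PKA-regulated phosphatase inhibitors 0 were called, and Ppp1r1b passed with the block (difference -1.17, adjusted p = 0.0754, or 0.0285 with the block). The phosphodiesterase partner beta-arrestin 1 (Arrb1) was lower by 1.23 on the log2 scale (adjusted p = 0.0156, up to 0.0676 without CCK-EGFP replicate 1 or 2), 1 of 3 partners measured. Of 8 genes for cGMP synthesis and cGMP-dependent kinases, Gucy1a1, a subunit of the nitric oxide receptor, was higher (7.12, 6.47 and 7.98 against 3.99, 4.07 and 3.40, at least 6.02-fold, adjusted p = 0.003). Its partner subunit Gucy1b1 had both means below background, and the guanylin receptor Gucy2c differed by 0.44 (adjusted p = 0.11).

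**Figure D4:**
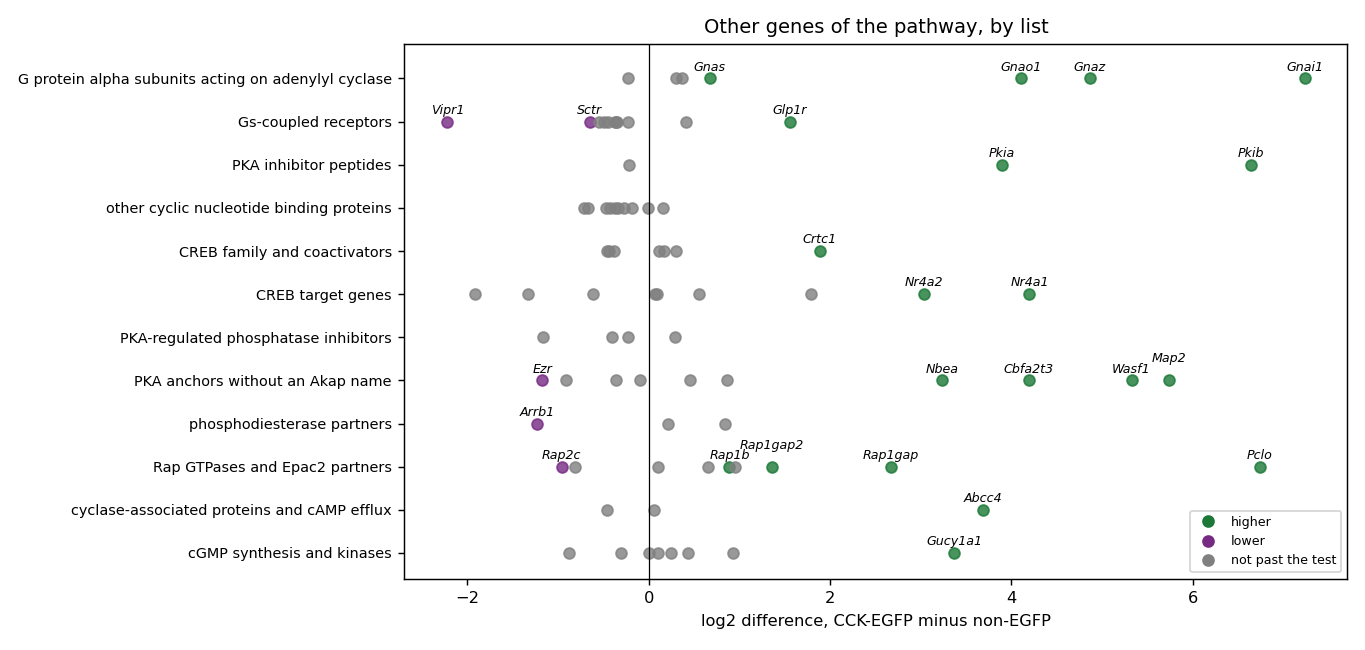
Log2 difference (horizontal axis) of the 84 other pathway genes, 1 point per gene in rows by list, with the genes past the test named and coloured by direction. Gnai1, Pclo and Pkib lie farthest to the right, and Vipr1 farthest to the left at -2.22.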

How the data were processed

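The authors deposited 1 table of 45101 probe sets for 6 arrays as log2 values, which per the submitters' processing notes come from RMA (background correction, quantile normalization and summary of each probe set). Its version is not given in the sources used here. Quantile normalization can reduce a broad shift between groups, and array medians were 5.66 to 5.72 in CCK-EGFP and 5.37 to 5.55 in non-EGFP cells. The platform annotation gave 34945 probe sets 1 gene symbol. For 18193 genes the brightest probe set, by its mean over the arrays, was used. The background level is the 95th percentile of the means of 71 olfactory and vomeronasal receptor genes.

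The comparison used limma 3.58.1 under R 4.3.3 (a two-sided moderated test by lmFit and eBayes; p-values adjusted by Benjamini-Hochberg and called under 0.05), tested on simulated data. Probe sets tested alone were adjusted over 34945. The genes and lists were chosen with earlier results of these data known. Every gene of the 63 is named. Values by array follow a rule: genes past the test, and up to 2 per family that are not, by level. Outside it, Adcy1, Adcy3, Prkar2b, Rapgef3 and Rapgef5, and of the pathway lists Gucy1b1, Pck1, Ppargc1a, Nr4a3, Ppp1r1b and Rab32, were added after their values were seen. Alternatives were a replicate block, a background filter, trend and robust settings, centring, a second quantile normalization, the mean of probe sets, array weights and leaving out each array. Same-numbered arrays of the 2 groups deviated together (r = 0.27, 0.16 and 0.22 across genes, which are not independent), each above 0.1. The label numbers were therefore taken as pairs in the block alternative. The main test, which gave the calls, did not pair the arrays. Some listed pathway genes are not analysed here. Figures were made with matplotlib 3.10.9 in Python 3.11.15.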

Additional observations from a re-analysis of the deposited data

How the results depend on the processing

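Of the 18 genes called, 9 kept their call when each of the 6 arrays was left out in turn, and leave-one-out counts ran from 8 to 13 higher and 2 to 4 lower of the 63 genes, from 16 to 20 higher and 2 to 7 lower of the other pathway genes, and from 1870 to 4448 over all genes, with the fewest without CCK-EGFP replicate 2. The 5 lower genes became 3 with the replicate block, 10 with centred arrays, 8 with a second quantile normalization and 8 with array weights, and the 5 lower pathway genes became 14 with centred arrays. Lower calls over all genes moved in the same fits from 1851 to 1534, 3604, 2019 and 2389. Pairing by replicate number as a block ended the calls of Pde8b, Pde5a, Rapgef2 and Akap11 and added Adcy1, Pde6d and Pde8a. The cause of these changes was not tested.

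Among 28 of the 63 genes, the 18 called and up to 2 more per family by level, direction changed for genes that were not called and for 1 probe set of Prkar1a. Centring gave -0.11 for Pde4dip, -0.24 for Prkar2a, -0.061 for Rapgef1 and -0.11 for Rapgef6. The mean of probe sets gave -0.064, -0.032, -0.38 and -0.49 for the same genes, and array weights gave -0.0098 for Prkar2a. Leaving out an array gave -0.23 to 0.0049 for Adcy6, -1.04 to 0.050 for Adcy7, -0.21 to 0.23 for Prkar2a and -0.048 to 0.28 for Rapgef6. Single probe sets gave 0.55 for Adcy7, -0.19 and -0.99 for Pde4dip, -0.057 for Prkar1a, -0.076 and -0.56 for Prkar2a, -0.95 for Rapgef1, -0.92, -0.18, -0.81 and -0.66 for Rapgef6, and 0.0066 for Akap9. Signals under the background level bound 9 of the 63 genes in both groups.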
